A study of Mus musculus with 29 samples.

Results

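Genes that mark T cells, natural killer (NK) cells, B cells and plasma cells were followed across 29 arrays of mouse lung tissue. The module is a given list of 36 genes, 25 of T and NK cells and 11 of B and plasma cells. For each gene the probe set with the highest mean was used. A probe set was annotated for 35 of them, Lck having none, and 29 of the 36 (18 T and NK genes, 11 B and plasma cell genes) passed a filter on low signals and entered the tests among 14602 genes.

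All mice were of a 129/Bl6 mixed background and carried CCSP-rtTA, a doxycycline-dependent activator driven by the Clara cell secretory protein promoter. The groups were 6 recurrences of TI-KM tumours and 14 TI-KM primary tumours, both from mice that also carried the activator-dependent transgenes TRE-KrasV12 and TRE-Mad2, 8 TI-K primary tumours from mice with TRE-KrasV12 and no Mad2 transgene, and 1 normal lung with CCSP-rtTA alone. The labels call the tumours adenocarcinoma or adenoma. They state neither ages nor treatment times, and they do not say whether any 2 tumours came from 1 animal, so p-values measure the spread between these samples. TI-KM primaries 1 and 2 share the title number 76, may be from 1 animal and entered the main fit as separate samples. The series title places the recurrences after withdrawal of the oncogene.

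T cells recognise antigen through a receptor whose signal passes through the CD3 chains, the kinases Lck and Zap70 and the adaptor Lat. Cytotoxic T cells and NK cells kill through perforin and granzymes released from granules. B cells signal through Cd79a and Cd79b, and B cells that mature into plasma cells make immunoglobulin; in lung, such cells can gather in lymphoid follicles near airways and in tumours. Bulk tissue was measured, so fewer cells of a type and less RNA per cell cannot be told apart in any value below.

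Values are MAS5 signals on a linear scale, and fold changes are on the log2(signal + 20) scale. A signal is specific to its probe set, and no probe set is ranked against another. Some arrays stood apart. In 10 tumour arrays, namely TI-KM recurrences 1 to 4 and TI-KM primaries 1 to 6, the 18S ribosomal control probe set exceeded 12000, and their lower signals were raised: the 25th percentile was 36.5 to 54.5, against 18.01 to 28.3 in the 13 remaining tumour arrays and 24.1 to 26.9 in the 5 TI-K primaries with title numbers above 5000. No TI-K primary belonged to the high-18S arrays, and normal lung (18S signal 12569) was kept apart. Values from a fit with these 3 sets of arrays as a block are therefore given beside the calls. The 5 arrays with high title numbers are all TI-K primaries and form a set of their own. In the blocked fit they therefore add nothing to a comparison with TI-K primaries. Such a comparison then rests on the 3 TI-K primaries among the remaining arrays. The mean log2 ratio of 3' to 5' signals of the Gapdh and actin controls differed too. It was 0.73 to 1.54 in recurrences 1 to 4, 1.79 and 1.80 in recurrences 5 and 6, and 1.64 to 2.95 in TI-K primaries. In TI-KM primaries it was 1.39 to 4.01, highest in TI-KM primary 3, and in normal lung 2.59. Its part in the values below was not tested. Alveolar type II genes (6 of 7 tested), which mark a single cell type of the lung epithelium, summed to 63774 to 122203 in recurrences, 83405 to 131264 in TI-KM primaries, 97158 to 144846 in TI-K primaries and 44076 in normal lung. Every tumour array was above normal lung in this sum, so it is not a measure of normal epithelium.

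Against TI-K primaries, recurrences were higher for the T and NK genes Cd8a and Foxp3 and the B genes Blk and Pax5. In limma's moderated test these were 2 of 18 T and NK genes and 2 of 11 B and plasma cell genes, while 18.8% of all genes were called either way and 12.2% were called higher. Over both lineages these shares are near that of all genes. At an unadjusted p below 0.05 there were 4 and 5. Every called gene is also below that level, so the share of all genes there is at least 18.8%. Here and below, counts at an unadjusted p stand without the exact share of all genes and are not read as an excess. The median log2 fold change was 0.45 for T and NK genes and 1.33 for B and plasma cell genes, with 0.11 over all genes. With recurrence 1 left out the medians were 0.14 and 0.33, with 0.10 over all genes, 2 B genes were called and no T or NK gene was (3 of 18 at an unadjusted p below 0.05), where 13.5% of all genes were called. With the sets of arrays as a block the medians were -0.14 and 0.34, and none of the 29 was called in limma (1 T and NK gene and no B gene at an unadjusted p below 0.05). That fit called 0.0959% of all genes, so few calls of any kind were made in it.

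**Figure D1:**
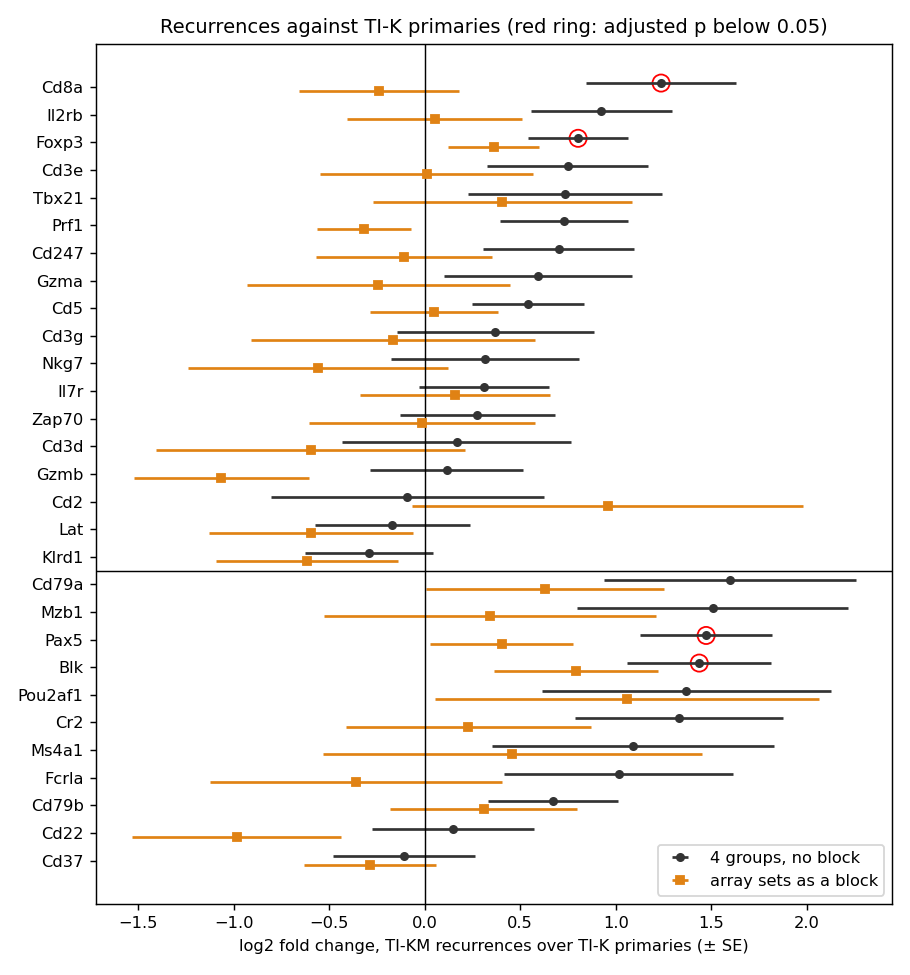
Log2 fold change of each tested lymphocyte gene, TI-KM recurrences (n = 6) over TI-K primaries (n = 8), with bars of 1 SE. Circles are from the fit over 4 groups and squares from the fit with sets of arrays as a block; the red rings mark Cd8a, Foxp3, Pax5 and Blk, whose blocked values all lie closer to 0.

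TI-KM primaries against TI-K primaries gave 1 higher T and NK gene, Cd8a, and 1 higher B gene, Pax5, where 7.99% of all genes were called and 5.5% were called higher. The median log2 fold change was 0.25 for T and NK genes and 0.56 for B and plasma cell genes, with 0.08 over all genes. As a block, the sets of arrays brought these medians to -0.19 and -0.03, and neither call held in limma (0 T and NK genes and 1 B gene at an unadjusted p below 0.05). That fit called 0 of all 14602 genes, or 0%. This comparison and that of recurrences with TI-K primaries use the same 8 TI-K arrays. Recurrences against TI-KM primaries gave no call in limma among the 29 (0 T and NK genes and 1 B gene, Cd79b, at an unadjusted p below 0.05), where 0.26% of all genes were called. The medians there were 0.28 and 0.62, with 0.04 over all genes, and without recurrence 1 they were -0.14 and 0.03, with 0.02 over all genes, and 0.0822% of all genes were called.

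The signal of each member in each array, set against the median of the gene, shows where the variation lay. One array, recurrence 1, held the highest signal for 11 of 18 T and NK genes and 10 of 11 B and plasma cell genes, against 13.4% of all genes.

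**Figure D2:**
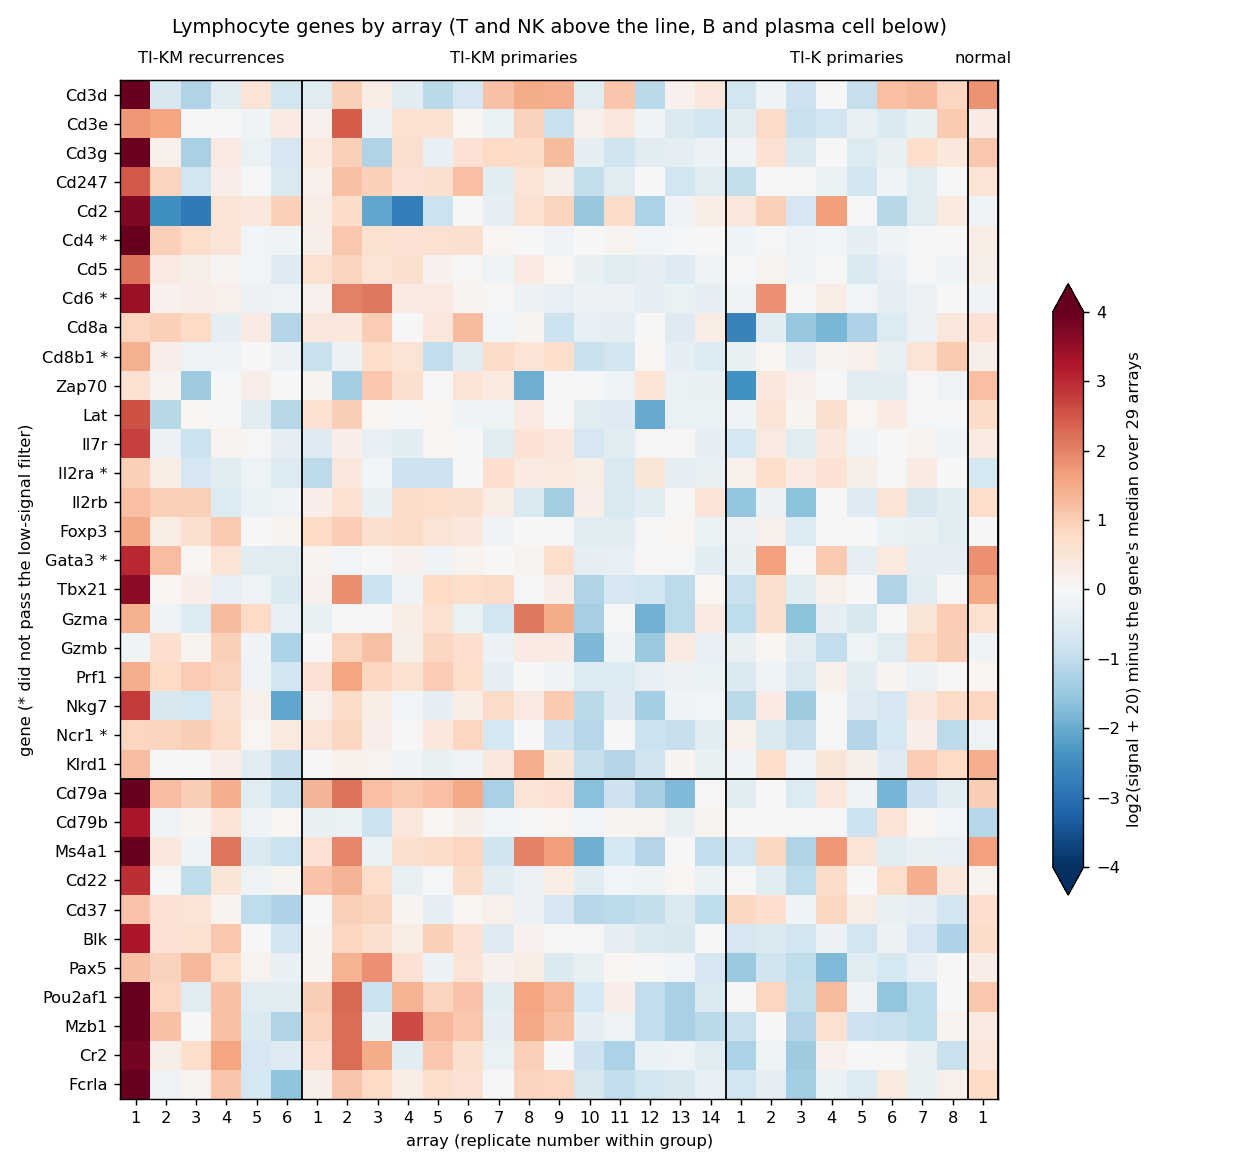
Each row is a gene and each column an array; colour gives log2(signal + 20) minus the gene's median over 29 arrays, and colours stop at 4 in either direction. The first column, recurrence 1, is darkest for Cd3d, Cd3g and Cd4 above the line (T and NK) and for Cd79a, Ms4a1, Pou2af1, Mzb1 and Fcrla below it (B and plasma cell).

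Chains of the T cell receptor complex varied among the arrays of each group. In what follows, 3 signals per group are the lowest, the median and the highest array. Cd3g had 19.2, 74.9 and 1477 in recurrences, 21.6, 83.0 and 209.7 in TI-KM primaries, 44.4, 70.9 and 134 in TI-K primaries and 183 in normal lung. The highest recurrence was recurrence 1, the next recurrence had 103, and the other groups overlapped. Cd3d, encoded beside Cd3g, had 8.57, 25.4 and 1026 in recurrences, 11.002, 57.2 and 165 in TI-KM primaries, 14.7, 41.9 and 141 in TI-K primaries and 207 in normal lung. The start sites of the 2 genes lie 1355 bases apart on chromosome 9 of GRCm38.p6. Cd3e had 37.1, 51.7 and 191 in recurrences, 14.2, 49.6 and 319 in TI-KM primaries, 14.3, 29.6 and 112 in TI-K primaries and 60.0 in normal lung. Its TI-KM high was array 2, and recurrences and both primary groups overlapped. Recurrence 1 was the highest recurrence for Cd3e, and the next recurrence was close to it, at 171. The fold changes of recurrences over TI-K primaries were 0.37 ± 0.52 (SE; adjusted p = 0.638) for Cd3g and 0.75 ± 0.42 (SE; adjusted p = 0.203) for Cd3e. Cd247, the zeta chain, had a median of 71.8 in recurrences, 78.4 in TI-KM primaries and 52.7 in TI-K primaries, and did not pass the test in any comparison. Its other probe sets were weaker. In the same groups 1 had medians of 41.2, 9.10 and 4.35, 1 had 36.3, 10.1 and 4.99, and 1 had 46.0, 30.5 and 34.5. The T cell surface genes Cd2, an adhesion receptor, and Cd5, a regulator of receptor signalling, were not called either. Cd2 had 2.43, 202 and 2059 in recurrences, 3.28, 131 and 271 in TI-KM primaries, 53.6, 160.3 and 487 in TI-K primaries and 124 in normal lung. Cd5 had 64.4, 116 and 517 in recurrences, 64.1, 105 and 203 in TI-KM primaries, 58.3, 91.2 and 111 in TI-K primaries and 121 in normal lung. Recurrence 1 was the highest array for both.

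The coreceptors differed from each other. Cd4, the coreceptor of helper T cells, did not pass the filter and had 14.7, 40.3 and 924 in recurrences, 15.4, 21.9 and 63.7 in TI-KM primaries, 10.5, 16.1 and 19.0 in TI-K primaries and 28.1 in normal lung. Recurrence 1 again held the highest value, and the next recurrence had 55.7. The other probe set of Cd4 did not show this. Its signals were weak, with medians of 9.82 in recurrences, 11.1 in TI-KM primaries, 26.6 in TI-K primaries and 10.4 in normal lung. Its highest recurrence was recurrence 4, at 18.8, so the 2 probe sets of this gene disagree. Cd8a, the coreceptor of cytotoxic T cells, had 64.3, 265 and 346 in recurrences, 85.3, 179 and 433 in TI-KM primaries, 9.75, 85.6 and 241 in TI-K primaries and 261 in normal lung. The recurrence signals overlapped those of both primary groups, and recurrence 2 was the highest of them. Its log2 fold change was 1.24 ± 0.39 (SE; adjusted p = 0.0292) for recurrences over TI-K primaries and 1.13 ± 0.32 (SE; adjusted p = 0.0314) for TI-KM primaries over TI-K primaries. With the sets of arrays as a block these were -0.24 ± 0.42 (SE, adjusted p = 0.877) and -0.14 ± 0.36 (SE, adjusted p = 0.995). The sign changed, but both values lie within their SE of no difference, so no direction is resolved.

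Within the TI-K primaries, Cd8a stood at 9.75 to 119 in the 5 arrays with high title numbers and at 111 to 241 in the other 3. The 8 TI-KM primaries of the remaining arrays had a lowest signal of 85.3 and a median of 144, and they overlapped those 3. The calls also ended without TI-K primaries 1, 3 or 4 (adjusted p = 0.0941, 0.0730 and 0.0823 for TI-KM over TI-K primaries, and 0.0666, 0.0528 and 0.0586 for recurrences over TI-K primaries). The call of TI-KM over TI-K primaries ended without TI-K primary 5 too (adjusted p = 0.0670). That of recurrences over TI-K primaries ended without recurrence 1, 2 or 3 (adjusted p = 0.0689, 0.0779 and 0.0718). Cd8a has 4 further probe sets, and one of them had a median of 128 in recurrences, 60.4 in TI-KM primaries, 43.8 in TI-K primaries and 25.9 in normal lung. Of the other 3, 1 had medians of 90.3, 88.0, 55.2 and 79.4 in the same groups, 1 had 40.8, 28.8, 5.44 and 19.3, and 1 had 52.9, 36.5, 54.6 and 59.2. The median was thus higher in recurrences than in TI-K primaries for all of the 5 probe sets but the last.

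Foxp3, the transcription factor of regulatory T cells, had 58.4, 91.9 and 209 in recurrences, 37.3, 61.3 and 139 in TI-KM primaries, 34.3, 46.7 and 71.9 in TI-K primaries and 61.0 in normal lung. Recurrences overlapped both primary groups. The log2 fold change was 0.80 ± 0.26 (SE; adjusted p = 0.0335) for recurrences over TI-K primaries and, with the sets of arrays as a block, 0.36 ± 0.24 (SE; adjusted p = 0.599). Without recurrence 1 it was 0.62 (adjusted p = 0.105). The call also ended without recurrence 3 (0.0619) or 4 (0.0826), and without TI-K primary 1 (0.0519) or 3 (0.0599), these being adjusted p-values. Tbx21, the T-bet factor of type 1 helper and NK cells, had 19.4, 36.6 and 695 in recurrences, 5.88, 40.02 and 195 in TI-KM primaries, 5.73, 31.6 and 71.9 in TI-K primaries and 153 in normal lung. Its high value was recurrence 1, all other recurrences lay at or under 51.8, and it was not called. Gata3, the factor of type 2 helper cells, did not pass the filter, with 3 of 29 arrays above the percentile.

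Among signalling molecules and cytokine receptors, Il7r, the receptor chain for the survival factor interleukin 7, had 272, 483 and 3541 in recurrences, 312, 458 and 768 in TI-KM primaries, 305, 492 and 692 in TI-K primaries and 662 in normal lung. Apart from recurrence 1 the groups overlapped. Zap70, the kinase that relays the CD3 signal, had 125, 385 and 579 in recurrences, 80.6, 369 and 800.0 in TI-KM primaries, 52.6, 341 and 506 in TI-K primaries and 877 in normal lung. Normal lung was above every tumour array for this probe set. The other 2 probe sets of Zap70 read 997 and 401 in recurrence 1, above all other arrays, whereas the one with the highest mean did not, so the probe sets of this gene disagree. Lat, the adaptor phosphorylated by Zap70, had 49.7, 113 and 869 in recurrences, 17.9, 124 and 282 in TI-KM primaries and 117, 142 and 216 in TI-K primaries. Il2rb, the shared receptor chain for interleukins 2 and 15, did not pass the test in recurrences against TI-K primaries (log2 fold change 0.92 ± 0.37 SE, adjusted p = 0.0735). Il2ra, the high-affinity interleukin 2 receptor chain, Cd6, a surface regulator of T cell activation, and Cd8b1, the partner of Cd8a, did not pass the filter.

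**Figure D3:**
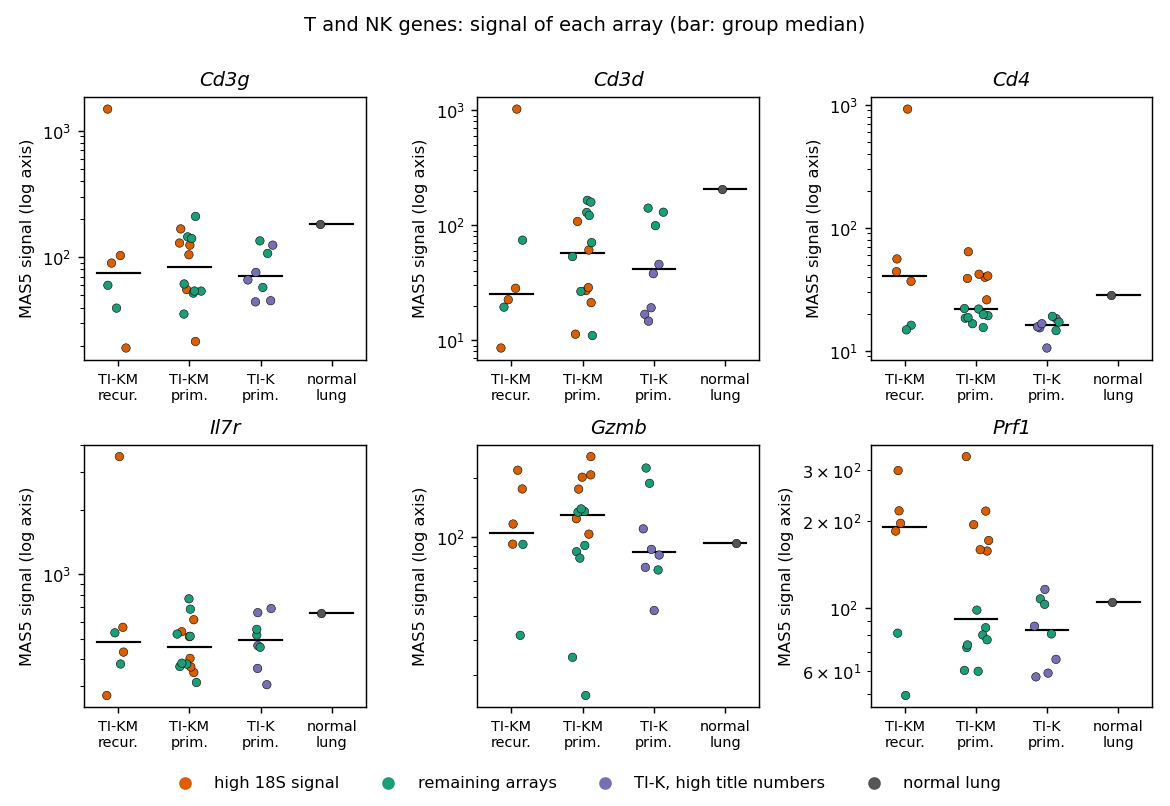
MAS5 signal of each array (log axis) for 6 T and NK genes, with recurrences at the left, then TI-KM primaries, TI-K primaries and normal lung; bars are group medians and colours are the sets of arrays. Recurrence 1 (1477 for Cd3g, 924 for Cd4) is far above the other points for Cd3g, Cd3d, Cd4 and Il7r, but not for Gzmb or Prf1.

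Cytotoxic granule genes followed no single pattern. Gzma, a granule protease, had 112, 230.2 and 496 in recurrences, 30.8, 168 and 808 in TI-KM primaries, 40.7, 149.7 and 368 in TI-K primaries and 271 in normal lung. All groups overlapped, and the highest array was TI-KM primary 8. Gzmb, the main apoptosis-inducing granzyme, had 31.8, 105 and 219 in recurrences, 15.7, 129 and 257 in TI-KM primaries, 42.5, 84.1 and 225 in TI-K primaries and 93.0 in normal lung. In recurrence 1 it lay below the median of the other 5 recurrences, by 0.28 on the log2 scale. Prf1, the pore-forming perforin, had 49.4, 190.4 and 299.6 in recurrences, 60.0, 91.5 and 335 in TI-KM primaries, 57.4, 83.5 and 116 in TI-K primaries and 105 in normal lung. Recurrences overlapped both primary groups, and its log2 fold change over TI-K primaries was 0.73 ± 0.33 (SE; adjusted p = 0.116). By set of arrays it read 184 to 299.6 in the high-18S recurrences and 157 to 335 in the high-18S TI-KM primaries, against 49.4 and 81.4 in the other recurrences and 60.0 to 97.9 in the other TI-KM primaries. The other probe set of Prf1 differed less between groups, with medians of 112 in recurrences, 110 in TI-KM primaries, 98.5 in TI-K primaries and 94.2 in normal lung. Nkg7, a granule membrane protein, had 10.6, 95.5 and 870.3 in recurrences, with recurrence 1 the highest and the next at 182. Of the NK receptor genes, Klrd1, which encodes CD94, gave no call between tumour groups. It was at -0.29 on the log2 scale in recurrences over TI-K primaries. Ncr1, which encodes NKp46, did not pass the filter and was not tested in the main fit. It had 31.2, 65.5 and 75.8 in recurrences, 1.99, 27.6 and 67.4 in TI-KM primaries and 1.48, 11.2 and 37.8 in TI-K primaries. These signals were weak, and the groups overlapped. Without the filter, Ncr1 was called in recurrences over TI-K primaries, where 16.8% of all genes were called.

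The 250 bases before the start sites of the cytotoxic granule genes are shown because the 4 genes, which are expressed together in killer cells, parted in recurrence 1, where Nkg7 was 10.8-fold and Gzma 3.13-fold above the median of the other recurrences while Gzmb and Prf1 were at 0.821-fold and 1.56-fold. The sequences are from RefSeq on GRCm38.p6: chr13:113100982-113101231 (- strand) for Gzma, chr14:56262335-56262584 (- strand) for Gzmb, chr10:61297586-61297835 (+ strand) for Prf1 and chr7:43436888-43437137 (+ strand) for Nkg7. Capitals mark TGTGGT, the letters bound by RUNX factors, or its reverse complement, and in Prf1 also CCCNNGGG, the letters of an EBF-type site.
Gzma: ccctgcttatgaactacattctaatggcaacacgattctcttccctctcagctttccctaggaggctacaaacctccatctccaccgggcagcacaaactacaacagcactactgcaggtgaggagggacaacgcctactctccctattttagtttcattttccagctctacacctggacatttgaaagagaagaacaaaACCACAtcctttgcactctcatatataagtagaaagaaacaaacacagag
Gzmb: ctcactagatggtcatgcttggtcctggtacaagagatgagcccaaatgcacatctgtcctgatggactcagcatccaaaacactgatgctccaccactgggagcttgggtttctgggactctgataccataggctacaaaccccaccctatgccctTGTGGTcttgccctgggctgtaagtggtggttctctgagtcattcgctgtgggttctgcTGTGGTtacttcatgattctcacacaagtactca
Prf1: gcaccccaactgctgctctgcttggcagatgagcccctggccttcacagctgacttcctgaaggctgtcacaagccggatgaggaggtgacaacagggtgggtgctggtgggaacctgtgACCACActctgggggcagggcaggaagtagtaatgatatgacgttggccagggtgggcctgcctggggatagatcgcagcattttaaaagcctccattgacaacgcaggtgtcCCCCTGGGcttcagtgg
Nkg7: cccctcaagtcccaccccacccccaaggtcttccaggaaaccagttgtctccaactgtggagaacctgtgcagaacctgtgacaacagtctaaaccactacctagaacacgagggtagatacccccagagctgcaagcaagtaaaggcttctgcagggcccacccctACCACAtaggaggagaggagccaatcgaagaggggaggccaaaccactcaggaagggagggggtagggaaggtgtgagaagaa
Each of the 4 windows holds TGTGGT on 1 strand or the other, Gzmb 2 times, and no match of 1 motif overlapped a match of another. Both strands of all windows were searched, and TGTGGT was found in 4614 of 32851 mouse windows of this length. A window was on hand for 19 of 25 T and NK genes, some with several, and 7 of the 19 had TGTGGT in at least 1: Gzma, Gzmb, Prf1, Nkg7, Ncr1, Lck and Zap70. None of the 7 B and plasma cell genes with a window had it. A gene with several windows has more chances of a match, so these counts by gene are not on the scale of the share by window, and a match is only a match of letters.

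B and plasma cell genes included the gene with the largest difference between recurrence 1 and the other recurrences, Pou2af1. Pou2af1, a coactivator of immunoglobulin transcription in B cells, had 101.2, 196 and 13826 in recurrences, 48.8, 238 and 807 in TI-KM primaries, 36.1, 139 and 384 in TI-K primaries and 334 in normal lung. Its highest recurrence was recurrence 1, and no other recurrence exceeded 363. Its log2 fold change for recurrences over TI-K primaries was 1.37 ± 0.76 (SE; adjusted p = 0.194). Ms4a1, which encodes the B cell surface protein CD20, had 104, 233 and 10963 in recurrences, 37.9, 261 and 899 in TI-KM primaries, 77.3, 162 and 731 in TI-K primaries and 678 in normal lung. Recurrence 4 was second among the recurrences. Mzb1, a chaperone of the endoplasmic reticulum in antibody-secreting cells, had 152, 622 and 16712 in recurrences, 139.7, 519 and 2366 in TI-KM primaries, 154, 196 and 575 in TI-K primaries and 483 in normal lung. The highest primary was TI-KM primary 4, and recurrences over TI-K primaries gave 1.51 ± 0.71 (SE; adjusted p = 0.126).

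The receptor chain Cd79a had 26.6, 166 and 1812 in recurrences, 5.06, 106 and 366 in TI-KM primaries, 3.54, 43.2 and 95.7 in TI-K primaries and 148 in normal lung. Recurrence 1 was the highest and the tumour groups overlapped. The fold change of recurrences over TI-K primaries was 1.60 ± 0.66 (SE; adjusted p = 0.0834), and it passed the test only in the fits without recurrence 5 (1.92, adjusted p = 0.0440) or recurrence 6 (2.00, adjusted p = 0.0284), among the fits that left out 1 array. Both of these recurrences lie outside the high-18S arrays. Cd79b, the partner of Cd79a, had 640.0, 784 and 7281 in recurrences, 396, 726 and 1007 in TI-KM primaries, 391, 716 and 1067 in TI-K primaries and 324 in normal lung. Every tumour array was above normal lung, and the tumour groups overlapped. Recurrences over TI-KM primaries gave 0.67 ± 0.31 (SE; adjusted p = 0.368) for Cd79b, and 0.62 ± 0.32 (SE; adjusted p = 0.362) with the sets of arrays as a block. Cd22, an inhibitory coreceptor of B cells that binds sialic acid, had 262, 556 and 4387 in recurrences, 394, 521 and 1434 in TI-KM primaries, 261, 658 and 1543 in TI-K primaries and 609 in normal lung. The highest primary was TI-K primary 7, and no comparison was called. Cr2, the complement receptor of B cells and follicular dendritic cells, had 30.2, 92.0 and 1108 in recurrences, 13.5, 55.0 and 361 in TI-KM primaries, 10.1, 48.1 and 70.6 in TI-K primaries and 90.8 in normal lung. Fcrla, an intracellular Fc receptor-like protein of germinal centre B cells, had 15.6, 86.3 and 3548 in recurrences, 34.9, 111 and 211 in TI-KM primaries, 21.8, 65.9 and 122 in TI-K primaries and 168 in normal lung. Recurrence 1 was the highest for both, and neither was called.

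Cd22 was the only one of the 7 B and plasma cell genes with a window that held CCCNNGGG, the letters of an EBF-type site, which stands in capitals; Pou2af1, whose signal differed most in recurrence 1, held none. They lie at chr7:30879029-30879278 (- strand) and chr9:51213440-51213689 (+ strand) of GRCm38.p6, from RefSeq.
Cd22: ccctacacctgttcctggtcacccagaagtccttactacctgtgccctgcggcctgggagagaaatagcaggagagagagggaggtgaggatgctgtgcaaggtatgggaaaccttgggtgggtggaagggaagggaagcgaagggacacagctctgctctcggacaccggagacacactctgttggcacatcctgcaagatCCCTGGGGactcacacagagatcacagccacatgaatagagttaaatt
Pou2af1: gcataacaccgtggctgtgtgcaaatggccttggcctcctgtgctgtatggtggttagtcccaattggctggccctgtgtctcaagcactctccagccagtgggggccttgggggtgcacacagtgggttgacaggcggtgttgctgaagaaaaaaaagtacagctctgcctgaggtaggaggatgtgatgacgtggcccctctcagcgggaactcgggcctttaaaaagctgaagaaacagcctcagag
CCCNNGGG is in 11.8% of all 32851 windows and in windows of 2 of the 19 T and NK genes, Prf1 and Zap70. The octamer ATGCAAAT, the letters bound by the Oct proteins that Pou2af1 assists, is in 1.6% of all windows and in none of the windows of these 26 genes, which says only that these letters are not in the 250 bases searched.

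Blk, a Src-family kinase of B cells, had 80.3, 235 and 1582 in recurrences, 89.3, 158 and 309 in TI-KM primaries, 51.8, 85.7 and 124 in TI-K primaries and 259 in normal lung. Most recurrences were above most TI-K primaries, but the groups overlapped. The log2 fold change was 1.44 ± 0.38 (SE; adjusted p = 0.011) for recurrences over TI-K primaries, and with the sets of arrays as a block it was 0.79 ± 0.43 (SE; adjusted p = 0.503). Pax5, the transcription factor that fixes B cell identity, had 57.1, 145 and 209 in recurrences, 39.4, 80.8 and 311 in TI-KM primaries, 7.80, 35.7 and 72.8 in TI-K primaries and 93.1 in normal lung. Its log2 fold change was 1.47 ± 0.35 (SE; adjusted p = 0.00575) for recurrences over TI-K primaries and 1.04 ± 0.28 (SE; adjusted p = 0.0251) for TI-KM over TI-K primaries. As a block, the sets of arrays brought these to 0.40 ± 0.37 (SE; adjusted p = 0.731) and 0.19 ± 0.32 (SE; adjusted p = 0.995). The call of Pax5 in TI-KM over TI-K primaries ended without TI-K primary 1, 3 or 4 (adjusted p = 0.0687, 0.0556 and 0.0722). Blk and Pax5 in recurrences over TI-K primaries were called in each of the 29 fits that left out 1 array. The other probe set of Pax5 was weaker, with medians of 39.2 in recurrences, 23.3 in TI-KM primaries, 11.6 in TI-K primaries and 58.7 in normal lung.

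By set of arrays, Pax5 was at 133 to 209 in the 4 high-18S recurrences and 59.6 to 311 in the 6 high-18S TI-KM primaries, against 39.4 to 96.2 in the 8 remaining TI-KM primaries and 37.7 to 72.8 in the 3 remaining TI-K primaries. Blk was at 231 to 1582 in the high-18S recurrences and 163 to 309 in the high-18S TI-KM primaries, against 80.3 to 149 in the other 2 recurrences. Foxp3 was at 87.8 to 139 in the high-18S TI-KM primaries and 37.3 to 64.2 in the remaining TI-KM primaries. The signal was above the 40th percentile of its array in all 29 arrays for Blk, in 19 for Pax5 and in 16 for Foxp3. The part of the raised low signals in these calls was not tested.

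**Figure D4:**
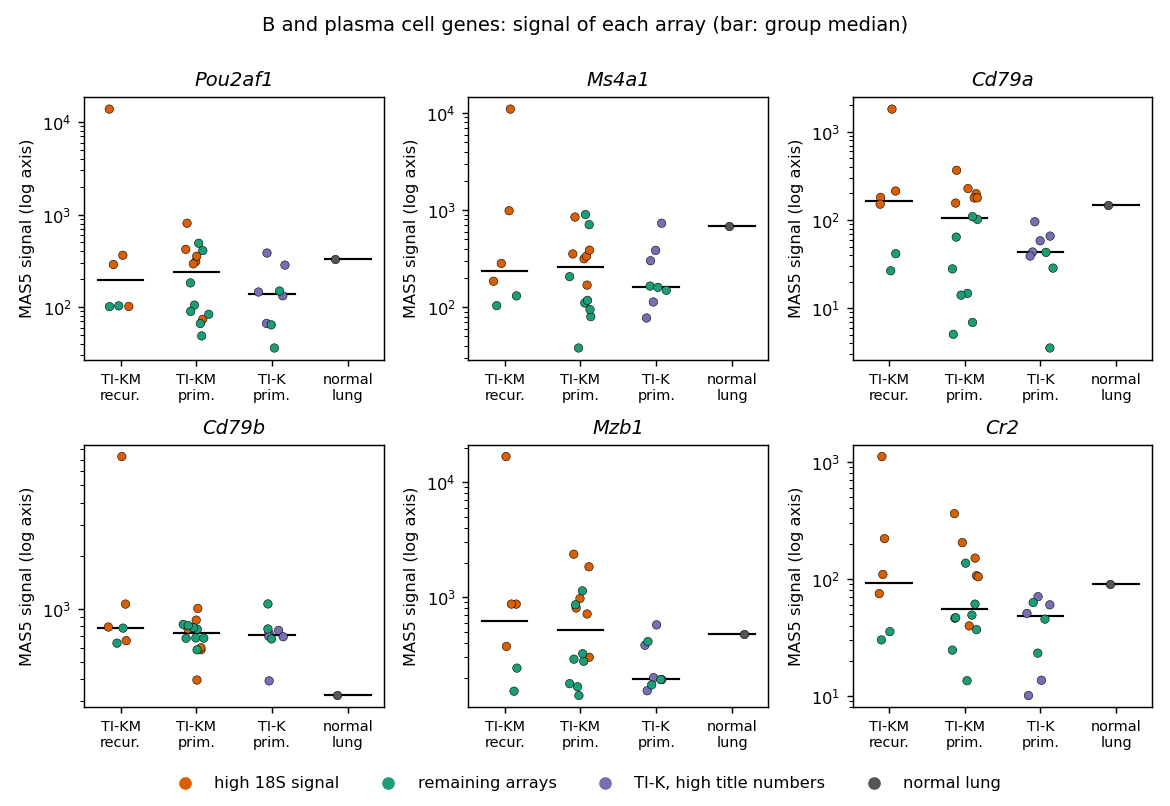
MAS5 signal of each array (log axis) for 6 B and plasma cell genes, with recurrences at the left, then TI-KM primaries, TI-K primaries and normal lung; bars are group medians and colours are the sets of arrays. Recurrence 1 reads 13826 for Pou2af1 and 10963 for Ms4a1, above all other arrays, and every tumour array is above normal lung for Cd79b.

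Recurrence 1 was singled out after its values were seen, so what follows is a description. Beside its highest signals, it was at least 4-fold above the median of the other 5 recurrences for 9 and 9 members, against 3.35% of all genes. The median log2 difference was 1.89 for T and NK genes and 3.42 for B and plasma cell genes, and 0.10 over all genes. Pou2af1 had the largest difference of all 14602 genes, at 112-fold. Ms4a1 was at 53.6-fold (rank 9) and Mzb1 at 42.6-fold (rank 10), and Fcrla was at 36.6-fold. Cr2 was at 11.9-fold, Cd79a at 10.7-fold and Cd79b at 9.14-fold. With the probe sets used here, Pax5 was at 1.38-fold and Cd37, a tetraspanin of B cells, at 2.01-fold. The other probe set of Cd37 read 1785 in recurrence 1 and at most 213 in the other recurrences. The other probe set of Pax5 read 119 in recurrence 1 and 115 in the next recurrence, with a recurrence median of 39.2.

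On the T and NK side, Cd3d was at 24.6-fold, Cd3g at 18.7-fold, Tbx21 at 14.02-fold and Nkg7 at 10.8-fold. Cd2 was at 9.80-fold and Cd5 was at 4.13-fold. These are among the 9 of 18 T and NK genes that were at least 4-fold above the others. Cd3e was at 3.31-fold and Klrd1 at 2.47-fold. With the probe sets used here, Cd8a was at 1.45-fold and Foxp3 at 2.32-fold. Another probe set of Cd8a read 130 in recurrence 1 and at most 71.1 in the other recurrences. The remaining probe sets of Cd8a were highest in recurrence 2 or 3 among the recurrences, so the probe sets of this gene disagree.

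**Figure D5:**
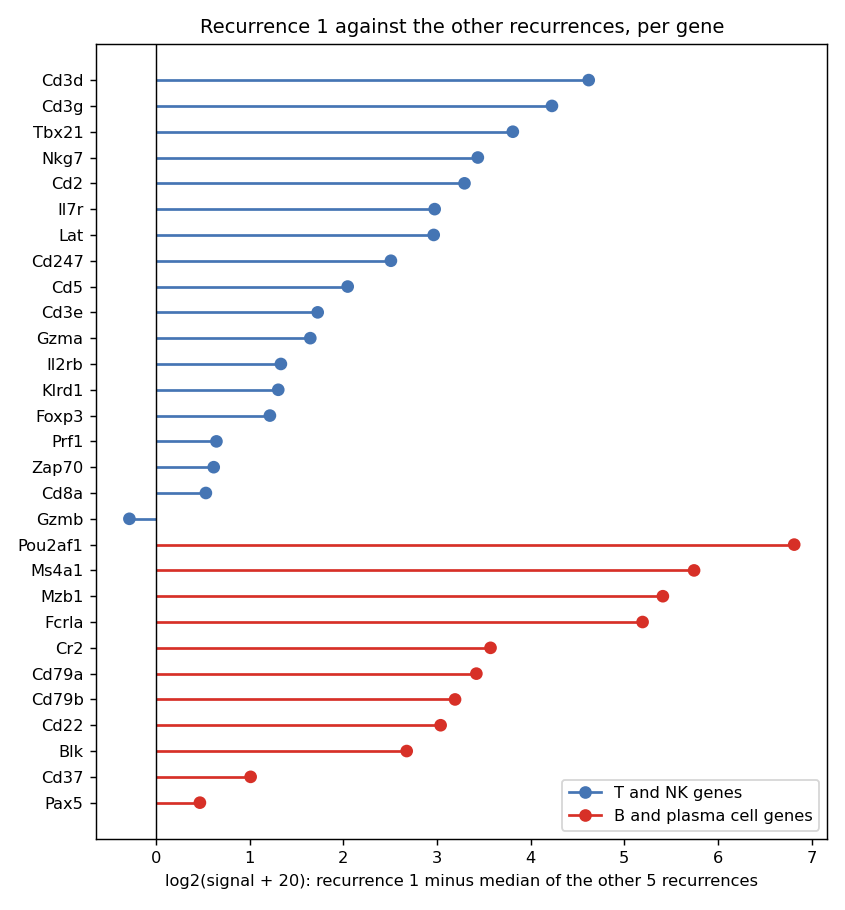
Difference in log2(signal + 20) between recurrence 1 and the median of the other 5 recurrences for each of the 29 tested genes, B and plasma cell genes in red and T and NK genes in blue. Pou2af1 is the largest at 6.81, and Gzmb is the one gene below 0, at -0.28.

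Recurrence 1 differed in other cell markers as well. Immunoglobulin genes such as Ighg3 (20354) and Iglv1 (17233) were among the 20 genes with the largest difference. Ighm, the constant region of IgM, was not: it read 10486 in recurrence 1, rank 11 of 29, against 14853 in recurrence 2, 12589 in recurrence 4 and 361 to 6140 in the other 3. Cxcl13, the chemokine that draws B cells into follicles, read 10181 in recurrence 1, 4337 in recurrence 4 and 177 to 1262 in the other 4 recurrences. Cxcr5, its receptor, read 989 in recurrence 1 and at most 193 in any other array. Ltb, a lymphotoxin chain needed for follicles, read 2827 in recurrence 1 and at most 726 elsewhere. The leukocyte gene Ptprc, which encodes CD45, read 17743, and 4 pan-leukocyte genes summed to 45734, against 4474 to 21298 in the other recurrences. Macrophage genes (9 of 10 tested) summed to 53313 in recurrence 1, against 20349 to 29822 in the others, with 3 of the 9 at least 4-fold above the median of the other recurrences and 1 at least 4-fold below it. Neutrophil genes (5 of 6 tested) summed to 1059 and 5 endothelial genes to 3712 in recurrence 1, within the ranges of the other recurrences (412 to 5067 and 1731 to 5923). Alveolar type II genes lay at a median of -1.06 on the log2 scale relative to the other recurrences, and Napsa, an alveolar protease, read 4438 against 10388 to 16607. The part of these cell types in the lymphocyte signals was not tested.

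With recurrence 1 set aside, the highest arrays were spread over the groups. TI-KM primary 2 then held the highest value for 5 of 18 T and NK genes and 4 of 11 B and plasma cell genes, recurrence 4 for 1 and 3, and TI-KM primary 8 for 3 T and NK genes. TI-KM primaries 1 and 2 share the title number 76 and may be from 1 animal. The 11 B and plasma cell genes summed to 7290 in TI-KM primary 2, 5356 in recurrence 4 and 5351 in TI-KM primary 4, against 61771 in recurrence 1. By group these sums ran from 1999 in recurrences, from 1836 to 7290 in TI-KM primaries and from 1571 to 3956 in TI-K primaries, and normal lung had 3437. The 3 tumour groups overlapped, and the highest sums of recurrences and TI-KM primaries lay above every TI-K primary. For the 18 T and NK genes the sums were 1783 to 14177 in recurrences (3161 without recurrence 1), 1497 to 3960 in TI-KM primaries, 1352 to 3230 in TI-K primaries and 4219 in normal lung.

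Further lymphocyte genes outside the module were counted. In recurrences against TI-K primaries, 5 of 19 other T cell genes were higher, led by Themis, a regulator of thymocyte signalling (1.64 ± 0.40 SE, adjusted p = 0.00688), and Ubash3a, a phosphatase-like brake on T cell receptor signalling (1.33 ± 0.33 SE, adjusted p = 0.00757). Of 8 other NK and cytotoxic genes, 1 was higher, the granule protease Gzmk (1.65 ± 0.51 SE, adjusted p = 0.0258), and 1 was lower, Tyrobp (-1.28 ± 0.39 SE, adjusted p = 0.0237), an adaptor of NK cells that macrophages also carry. Of 26 other B and plasma cell genes 3 were higher, among them Tnfrsf17, the plasma cell survival receptor BCMA (1.66 ± 0.46 SE, adjusted p = 0.0146), and Irf4, a plasma cell transcription factor (1.16 ± 0.36 SE, adjusted p = 0.0247). Of 9 genes for lymphoid attraction and survival 1 was higher, the cytokine Il7 (0.47 ± 0.16 SE, adjusted p = 0.0406), while the chemokine Cxcl12 gave -0.69 ± 0.43 (SE; adjusted p = 0.243). These counts stand beside 12.2% higher and 18.8% called either way over all genes. Without recurrence 1, 3 T cell genes (Themis, Ubash3a and Slamf1), no NK gene, 1 B and plasma cell gene (Tnfrsf17, adjusted p = 0.0479) and no attraction gene were called higher. Gzmk (adjusted p = 0.0918), Irf4 (0.0829) and Il7 (0.0550) were among those lost, while Tyrobp stayed lower and Btk, a B cell kinase, was added as lower (0.0472). With the sets of arrays as a block none of these was called (adjusted p = 0.399 for Themis, 0.991 for Ubash3a, 0.991 for Gzmk, 0.423 for Tyrobp, 0.681 for Tnfrsf17, 0.962 for Irf4 and 0.666 for Il7).

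TI-KM primaries against TI-K primaries gave 1 call among those 4 lists, Themis (1.01 ± 0.32 SE, adjusted p = 0.0494), which ended with the block (0.995, adjusted p). Recurrences against TI-KM primaries gave none, with 3 of 19 other T cell genes and 2 of 26 other B and plasma cell genes at an unadjusted p below 0.05 and none in the other 2 lists.

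With a single array of normal lung, the model lends it the spread of the tumour groups. No member was called against it in limma, where 12.6% of all genes were called for recurrences, 14.9% for TI-KM primaries and 13.5% for TI-K primaries. At an unadjusted p below 0.05 there were 1 T and NK gene and 1 B gene for recurrences, 1 and 0 for TI-KM primaries, and none for TI-K primaries. The median log2 fold change was -0.27, -0.57 and -0.83 for T and NK genes, and 0.15, -0.61 and -1.09 for B and plasma cell genes, in recurrences, TI-KM primaries and TI-K primaries over normal lung, while the medians over all genes were 0.14, 0.10 and 0.00. The T and NK genes with the smallest p were Klrd1, Cd8a, Zap70 and Tbx21. Klrd1 had 60.5, 129 and 339 in recurrences, 48.4, 121 and 398 in TI-KM primaries, 86.5, 175 and 289 in TI-K primaries and 398 in normal lung, and its fold changes were -1.44 ± 0.67 (SE; adjusted p = 0.166) for recurrences, -1.53 ± 0.64 (SE; adjusted p = 0.113) for TI-KM primaries and -1.15 ± 0.66 (SE; adjusted p = 0.282) for TI-K primaries over normal lung. For TI-K primaries over normal lung, Cd8a gave -1.57 ± 0.77 (SE; adjusted p = 0.198), Zap70 gave -1.56 ± 0.80 (SE; adjusted p = 0.217) and Tbx21 gave -1.81 (adjusted p = 0.26).

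Of the 11 B and plasma cell genes, 8 had a positive log2 fold change in recurrences, 3 in TI-KM primaries and 2 in TI-K primaries over normal lung. The recurrence values include recurrence 1, the highest array for 10 of the 11. Among the 8, the median recurrence signal was below normal lung for Cd22 (556 against 609), Blk (235 against 259) and Pou2af1 (196 against 334). It was above normal lung for Cd79a, Cd79b, Pax5, Mzb1 and Cr2. Cd79b and Cd22 were positive in all 3 comparisons, Cd22 in recurrences only with recurrence 1 in the mean. Cd79b gave 1.74 ± 0.68 (SE; adjusted p = 0.0914) for recurrences, 1.07 ± 0.65 (SE; adjusted p = 0.313) for TI-KM primaries and 1.07 ± 0.67 (SE; adjusted p = 0.331) for TI-K primaries over normal lung. It passed the test in all 3 comparisons in the fit without recurrence 1 (1.21, 1.07 and 1.07 on the log2 scale, adjusted p = 0.0272, 0.0359 and 0.0432), where 14.6%, 16.3% and 15.1% of all genes were called, and with the remaining arrays alone (1.08, 1.11 and 1.29, adjusted p = 0.0160, 0.00404 and 0.00303), where 20.1%, 26.3% and 23.9% were called. Blk (-1.37 ± 0.74 SE, adjusted p = 0.247) and Pax5 (-1.09 ± 0.68 SE, adjusted p = 0.333) for TI-K primaries and Cd37 (-0.94 ± 0.72 SE, adjusted p = 0.445) for TI-KM primaries had the next smallest p.

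Of the lists outside the module, 0 of 19 other T cell genes were called against normal lung for any tumour group (1 at an unadjusted p below 0.05 for TI-K primaries and none for the other 2 groups). Of 26 other B and plasma cell genes, 1 was higher and 1 lower in recurrences, and 2 were higher and 1 lower in both TI-KM and TI-K primaries. Sdc1, a plasma cell surface proteoglycan that epithelial cells also carry, gave 2.40 (adjusted p = 3.0e-07) in recurrences, 2.64 (1.7e-08) in TI-KM primaries and 2.56 (5.0e-08) in TI-K primaries. Ebf1, a B cell transcription factor that stromal cells also carry, gave -3.22 (adjusted p = 0.000261), -3.55 (3.5e-05) and -3.64 (3.6e-05) in the same groups. The cytokine Il7 was higher in all 3, at 1.86 (adjusted p = 0.000168), 1.66 (0.000327) and 1.39 (0.00282), whereas Cxcl12 was lower in recurrences (-2.55, adjusted p = 0.0454) and TI-KM primaries (-2.90, 0.0137). Other NK and cytotoxic genes gave 1 call of 8, Tyrobp in TI-K primaries (2.66, adjusted p = 0.0169). Tumour and normal tissue also differed in other cells: 5 endothelial genes summed to 1731 to 5923 in recurrences, 1375 to 3549 in TI-KM primaries, 1769 to 4826 in TI-K primaries and 12822 in normal lung, and the part of tissue makeup in these values was not tested.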

How the data were processed

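Total RNA was labelled with biotin after a 2-cycle preparation and hybridised 1 sample per array, per the labels. The deposited values are MAS5 signals, an intensity on a linear scale, per the submitters' processing notes, which give no version. Their 2% trimmed mean was 500.0 in every array. Although the design text speaks of MOE430A 2.0 arrays, 45101 probe sets are present, and they were named from the platform annotation.

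Of these, 34945 named 1 gene, 932 named several and 64 were controls; 34741 matched the RefSeq gene table (GRCm38.p6). Probe sets above the 40th percentile of their array in at least 6 arrays were kept (31991), and the highest mean log2(signal + 20) represented each gene. That scale understates changes of weak signals. All 29 arrays entered 1 limma model (version 3.58.1, R 4.3.3) with a variance trend and 4 groups as its term. Benjamini-Hochberg adjustment ran over all 14602 genes, and calls needed an adjusted p below 0.05. The fit was checked on simulated data. Figures used Python 3.11.15, pandas 2.3.3 and matplotlib 3.10.9. Precision is set by how many arrays each group has.

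The 18S control signal and the title numbers defined the sets of arrays, and replicate numbers only order arrays within a group. Members and lists were chosen with earlier results of these data known. Values are given for called members, for chosen lineage markers, for the 3 members per lineage with the highest mean and, against normal lung, for the 4 with the smallest p per lineage; of the other lists, the 2 with the smallest p are named. Genes named outside that rule, such as those of recurrence 1, were chosen after their values were seen. Alternatives covered offset, filter, probe set choice, scaling, array sets and each array left out.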

Additional observations from a re-analysis of the deposited data

Results flagged for a closer look

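Dixon's test at the 95% level was run on log2 values of each tested member, in all 58 sets of values. The groups were the recurrences (6 arrays) and the TI-K primaries (8 arrays). The test marks about 1 in 20 independent sets by chance. These sets come from the same arrays and are not independent, so no excess is read from the count. Here it marked 12 sets. In 9 of them recurrence 1 was the highest of 6 recurrences: Cd3d at 1026, Cd3g at 1477, Cd5 at 517, Lat at 869, Il7r at 3541, Tbx21 at 695, Cd79b at 7281, Pou2af1 at 13826 and Mzb1 at 16712. The 3 other marks were low arrays: Zap70 at 125 in recurrence 3, the lowest of 6, Zap70 at 52.6 in TI-K primary 1, the lowest of 8, and Cd79b at 391 in TI-K primary 5, the lowest of 8.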

How the results depend on the processing

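The calls between tumour groups rest on which arrays are compared. The fits named next all take their TI-K level from the same 3 TI-K primaries, so they are not separate checks. With the sets of arrays as a block, with the remaining arrays only, and with the block and recurrence 1 left out together (an alternative chosen after seeing the data), the counts for TI-KM over TI-K primaries (1 T and NK gene and 1 B gene) and for recurrences over TI-K primaries (2 and 2) all went to 0, but these fits called 0% of all genes in the one comparison and 0.0959%, 0.13% and 0.308% in the other. Cd8a then changed sign: -0.14, -0.12 and -0.12 for TI-KM over TI-K primaries, and -0.24, -0.32 and -0.29 for recurrences over TI-K primaries. The blocked values lie within their SE of no difference. With the mean of a gene's probe sets, or without probe sets ending in _x_at or _s_at, Cd8a was lost from both comparisons, leaving 0 and 1 T and NK genes (9.75% and 22.6% of all genes called with the mean, 7.35% and 18.4% without those probe sets). With only the 2 groups compared, the counts were 1 T and NK gene (Foxp3) for recurrences over TI-K primaries and 2 B genes (Blk and Pax5) for TI-KM over TI-K primaries, where 2810 and 1611 of 14602 genes were called. Without the filter on low signals, 4 T and NK genes were called in recurrences over TI-K primaries, with Cd4 and Ncr1 added (16.8% of all genes). Against normal lung, where no member was called, the remaining arrays alone gave 1 T and NK gene (Tbx21) and 2 B genes (Blk and Cd79b) for TI-K primaries, 1 (Tbx21) and 2 (Cd37 and Cd79b) for TI-KM primaries and 2 B genes (Cd37 and Cd79b) for recurrences, where 23.9%, 26.3% and 20.1% of all genes were called. With only the 2 groups compared there were 1 (Tbx21) and 1 (Blk) for TI-K primaries and 1 B gene (Cd79b) for TI-KM primaries (21.3% and 14.6% of all genes). With the high-18S arrays alone 1 T and NK gene (Klrd1) was called for TI-KM primaries (15.1% of all genes). Leaving out each array in turn gave 0 to 1 T and NK genes and 0 to 2 B genes for TI-KM over TI-K primaries, 0 to 3 and 2 to 5 for recurrences over TI-K primaries, and 0 to 0 T and NK genes and 0 to 1 B genes (Cd79b, without recurrence 1) in each comparison with normal lung. The 5 B genes were called without recurrence 6 and 4 without recurrence 5, where 26.9% and 22.2% of all genes were called. Recurrences 5 and 6 are the only recurrences outside the high-18S arrays, a set that holds no TI-K primary. Recurrences over TI-KM primaries stayed at 0 in all alternatives run. The offset, scaling, quantile and variance trend settings and averaging of the 2 arrays numbered 76 moved none of the counts by more than 1.5 times. The cause was not tested in any of these. No paired analysis was possible because the labels give no replicate numbers shared between groups. Weak signals, such as those of Cd4 and Gata3, limit what the arrays resolve.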
